A study of Mus musculus with 9 samples.

Results

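The aminoacyl-tRNA synthesis genes were taken as the 64 genes, of 56691 in the deposited table, whose KEGG annotation placed them in aminoacyl-tRNA biosynthesis. Of the 64, 20 encoded cytosolic synthetases and 18 were synthetase symbols ending in 2, which mark the mitochondrial enzymes. A further 5 were other enzymes of aminoacyl-tRNA formation, 3 were symbols not known as synthetases (Tm2d3, Tmem158 and Sowahd) and 18 were predicted genes or pseudogenes. Symbols starting with mt-T were to be left out, and 0 such genes carried the pathway. The 18 symbols ending in 2 included Tarsl2, which encodes a threonyl-tRNA synthetase-like enzyme of the cytosol, so counts are also given without it.

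RNA was sequenced from RAW264.7 cells, a mouse macrophage-like cell line that can form osteoclast-like cells when it is given RANKL, the cytokine that drives osteoclast differentiation. Unstimulated control cells, cells given RANKL at 50 ng/mL and cells given the same RANKL together with uridine (UD), a pyrimidine nucleoside, were each represented by 3 libraries. Cells were collected on day 3, which is 72 h after RANKL, and the UD concentration of these cultures was not given in the sources used here. The comparison of RANKL + UD with RANKL asks what UD changed in cells that received the cytokine, and the comparisons with control give the background of RANKL itself.

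Aminoacyl-tRNA synthetases join each amino acid to its transfer RNA, and the ribosome then takes the amino acid from that transfer RNA. Mammalian cells carry separate nuclear genes for the enzymes of the cytosol and of the mitochondrion, except that Gars and Kars each supply both compartments and that mitochondrial glutaminyl-tRNA is made by an amidotransferase. Osteoclasts are large multinucleated cells rich in mitochondria, and many cytosolic synthetase genes are known as targets of ATF4, the transcription factor of the amino acid response.

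Library totals ranged from 15951800 to 19746862 counts, and the lowest count of any synthetase gene in any library was 73. The summed FPKM (a read count divided by exonic length and library total) of 9 osteoclast markers was 46.9 to 50.1 in control, 2641 to 2844 in RANKL and 1666 to 1703 in RANKL + UD. For 8 macrophage markers it was 8901 to 9490, 2371 to 2602 and 2070 to 2199, and the stromal, T cell, B cell and neutrophil lists summed to at most 0.29 FPKM in every library. Lyz2 made up most of the macrophage sum in control, at 7818 to 8299 FPKM. Cd68 was higher in RANKL (758 to 830 FPKM) than in control (524 to 599), and the other macrophage markers were lower. These marker levels moved with the groups, and their part in the results was not tested. In bulk RNA, fewer cells of a type and less RNA per cell cannot be told apart.

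Levels of the 2 synthetase classes differed widely. The median FPKM of the 20 cytosolic genes was 36.5 in control, 42.3 in RANKL and 39.7 in RANKL + UD, and that of the 18 mitochondrial genes was 2.90, 3.39 and 3.98. Nars (asparaginyl-tRNA synthetase) and Sars (seryl-tRNA synthetase) had the highest mean levels of the cytosolic class in every group, and Farsa, the alpha subunit of phenylalanyl-tRNA synthetase, the lowest. Nars was at 129.8 FPKM in control, 158 in RANKL and 110.3 in RANKL + UD, against 9.69, 10.2 and 10.7 for Farsa. Lars2 (mitochondrial leucyl-tRNA synthetase) led the mitochondrial class at 39.0, 49.2 and 36.0 FPKM, followed by Rars2 (mitochondrial arginyl-tRNA synthetase) at 13.2, 13.6 and 16.3. All 38 synthetase genes passed the filter on low values (3 or more libraries at 1 FPKM or higher), as did the 5 other enzymes and Tm2d3. The other 20 genes did not. Tmem158 reached 1.30 FPKM in 1 RANKL library, and Sowahd and the 18 predicted genes and pseudogenes were at 0.14 FPKM or lower.

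Summed over the 20 genes, the cytosolic class was at 978 ± 14.8 FPKM in control (mean ± SD, n = 3), 1120 ± 20.1 in RANKL and 928 ± 13.8 in RANKL + UD. The libraries of the 3 groups did not overlap, with all 3 RANKL libraries highest and all 3 RANKL + UD libraries lowest. Without Sars, Cars and Nars, the cytosolic sum was 718 ± 24.4 in control, 803 ± 11.6 in RANKL and 714 ± 11.4 in RANKL + UD. The control and RANKL + UD libraries then overlapped, and the RANKL libraries were above both. The mitochondrial class was at 129.3 ± 7.75, 138.99 ± 7.94 and 140.6 ± 11.9 FPKM, and its groups overlapped. Without Lars2, the mitochondrial sum was 90.3 ± 1.57 in control, 89.8 ± 2.26 in RANKL and 104.5 ± 2.32 in RANKL + UD, and the RANKL + UD libraries were all above the others. Both mitochondrial sums include Tarsl2. FPKM is scaled to library totals. On that scale the median log2 fold change of all genes tested was -0.12 in RANKL against control. It was 0.09 in RANKL + UD against RANKL, so part of these differences between sums was shared by genes in general.

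**Figure D1:**
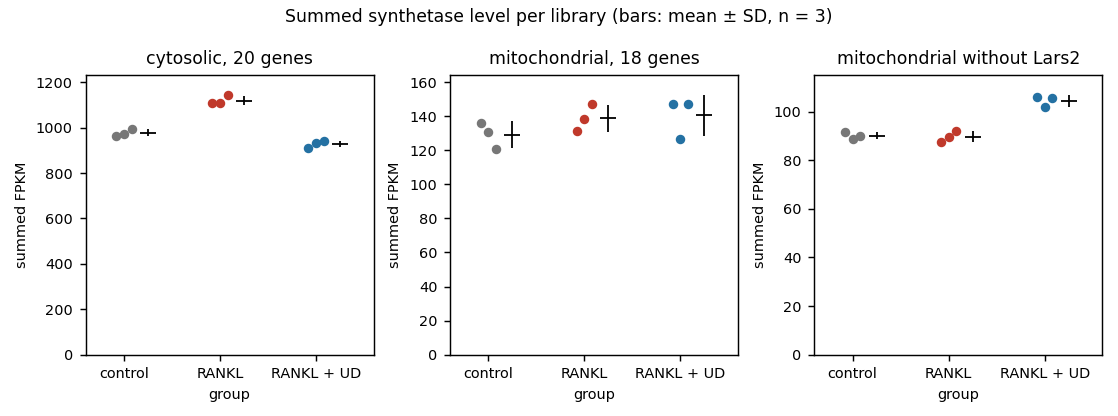
Summed FPKM of the cytosolic synthetases, the mitochondrial synthetases and the mitochondrial synthetases without Lars2 in each library (points) with mean ± SD (bars, n = 3), by group. The cytosolic sum was highest in RANKL (1120 on average) and lowest in RANKL + UD (928), whereas the mitochondrial sum without Lars2 was highest in RANKL + UD (104.5). With scaling to library totals, as in FPKM, the median log2 fold change of all genes tested was -0.12 with RANKL and 0.09 with UD.

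Most cytosolic synthetase mRNAs were higher with RANKL. By edgeR's quasi-likelihood test at a Benjamini-Hochberg adjusted p under 0.05, 15 of the 20 cytosolic genes were higher in RANKL than in control, 1 was lower and 4 did not pass, with a median log2 fold change of 0.24. Among all 11995 genes tested, 27.3% were higher and 30.2% lower, with a median of -0.03. In 12 of the 20 genes every RANKL library was above every control library, against 22.9% of all genes tested. With a fold change of at least 1.5 as well, Dars, Wars2 and Tarsl2 were called, 3 of 44 tested members against 24.9% of all genes. When libraries were scaled to their total counts in place of TMM, the cytosolic split was 11 higher to 3 lower, and the share of higher genes among all called genes was 36.8% in place of 47.5%. The labels call the replicates biological samples without saying whether they came from separate cultures, so p-values measure the spread between these samples, which may be technical.

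Dars (aspartyl-tRNA synthetase) rose most of the cytosolic class, from 37.6, 34.8 and 39.0 FPKM in control to 55.1, 50.3 and 53.9 in RANKL. Its log2 fold change was 0.60 ± 0.05 (SE, edgeR adjusted p = 3.2e-09), and the 2 groups did not overlap. Qars (glutaminyl-tRNA synthetase) rose from 24.1 to 25.8 FPKM in control to 33.7 to 36.0 in RANKL, and Kars (lysyl-tRNA synthetase) from 31.3 to 31.6 to 40.6 to 42.2. Their log2 fold changes were 0.55 ± 0.05 and 0.49 ± 0.05. Aars (0.42), Eprs (0.41), Sars (0.41), Nars (0.37), Rars (0.36), Lars (0.28), Gars (0.25), Iars (0.24), Tars (0.19), Cars (0.18), Farsb (0.18) and Hars (0.18) also rose. The rises of Cars, Hars, Tars and Farsb were not called with total-count scaling or limma, and that of Farsb was also lost without control library 1, control library 2 or RANKL library 3. Vars (valyl-tRNA synthetase) fell by 0.17 on the log2 scale (SE 0.06, edgeR adjusted p = 0.012), from 34.1 to 38.1 FPKM in control to 28.0 to 31.1 in RANKL. Its adjusted p was 0.052 without control library 3 and 0.076 without RANKL library 1. Mars1, Wars, Yars and Farsa did not pass. Control and RANKL ranges were 47.5 to 49.3 and 41.9 to 44.0 FPKM for Mars1 and 26.6 to 27.6 and 24.9 to 26.7 for Yars. FPKM carries no TMM scaling, and with TMM the log2 fold changes were -0.07 for Mars1 and 0.02 for Yars. Mars1 was called lower with total-count scaling (edgeR adjusted p = 0.0057) and with limma (adjusted p = 0.012 in both settings).

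The mitochondrial class was divided between the directions. Of 18 genes, 5 were higher in RANKL than in control, 4 were lower and 9 did not pass, with a median log2 fold change of 0.07. Without Tarsl2 the counts were 4 and 4 of 17, with a median of 0.04. These shares, 27.8% higher and 22.2% lower, were near those of all genes tested. In 4 genes every RANKL library was above every control library and in 4 every one was below, against 22.9% and 38.8% of all genes tested. Only 3 genes were higher without RANKL library 3, and the number of lower genes was 1 without control library 1 and 2 without control library 2, RANKL library 1 or RANKL library 3. Total-count scaling gave 4 higher and 5 lower genes.

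Wars2, the mitochondrial tryptophanyl-tRNA synthetase (chr3:99048384-99146502 in the deposited table), was at 4.28, 4.58 and 3.94 FPKM in control and at 6.66, 5.97 and 6.58 in RANKL. It rose by a log2 fold change of 0.67 ± 0.08 (edgeR adjusted p = 3e-07), the largest of the mitochondrial class, with no overlap between the groups. Tarsl2 was at 2.55, 2.70 and 2.80 FPKM in control and at 4.33, 3.83 and 3.80 in RANKL, with a log2 fold change of 0.66 ± 0.09. Iars2 (0.38), Lars2 (0.42) and Fars2 (0.33) rose as well. Lars2 spread over 30.7 to 44.2 FPKM in control and 43.6 to 55.0 in RANKL, and its call was lost with DESeq2 (adjusted p = 0.099), with limma (0.21 and 0.23), without control library 3 (0.078) and without RANKL library 3 (0.090). The rise of Fars2 was lost without RANKL library 3 and with total-count scaling. Aars2, Mars2, Hars2 and Tars2 were the 4 genes that fell, by 0.42, 0.27, 0.25 and 0.20 on the log2 scale, and the fall of Mars2 was lost without control library 1 (adjusted p = 0.056), control library 2 (0.18), RANKL library 2 (0.16) or RANKL library 3 (0.12).

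**Figure D2:**
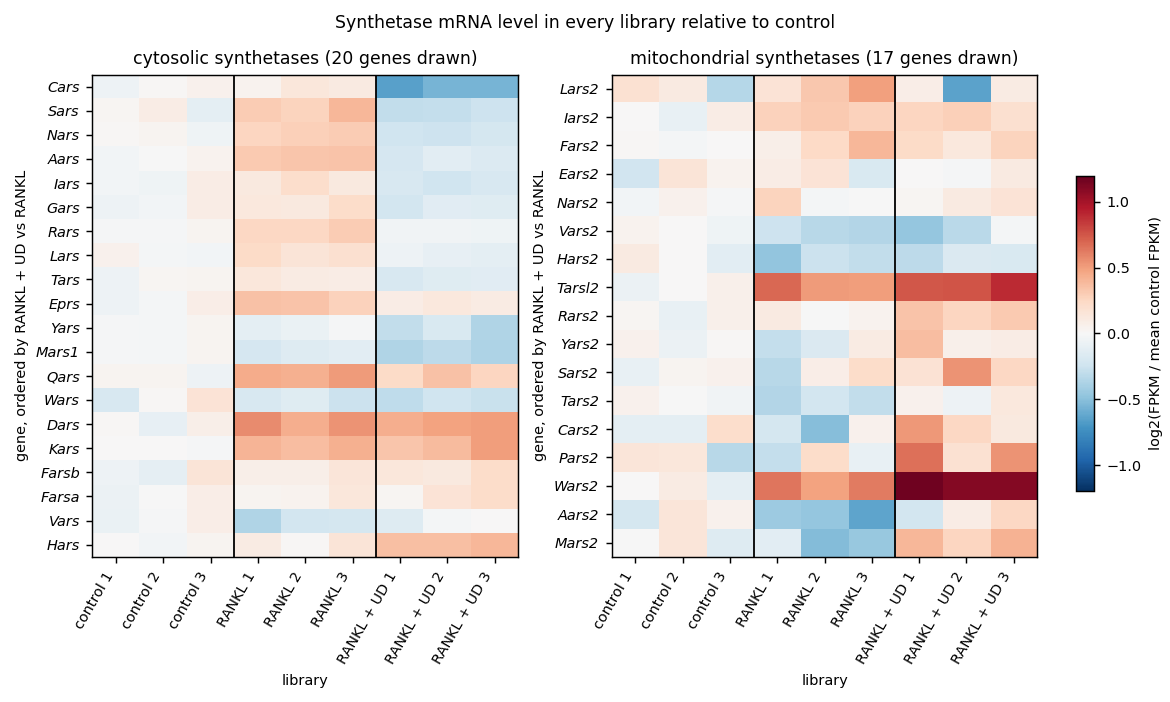
Level of each synthetase gene in each of the 9 libraries, as log2 of its FPKM over its mean control FPKM (color scale), with genes ordered by their change in RANKL + UD against RANKL and 17 of the 18 mitochondrial genes drawn. Cars was the lowest of the cytosolic genes in the RANKL + UD libraries and Wars2 the highest of the mitochondrial genes, while Lars2 differed between libraries of the same group.

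Adding UD to RANKL gave the opposite balance in the cytosolic class. In RANKL + UD against RANKL, 13 of the 20 cytosolic genes were lower, 1 was higher and 6 did not pass, with a median log2 fold change of -0.30. Of all genes tested, 20.2% were lower and 18.6% higher, and the median was 0.01. In 13 of the 20 genes every RANKL + UD library was below every RANKL library, against 17.6% of all genes tested. With a fold change of at least 1.5 as well, Cars, Sars, Nars and the mitochondrial Mars2 were called, 4 of 44 tested members against 9.86% of all genes. Across the 9 alternatives that kept every library, 13 to 15 cytosolic genes were lower and 1 to 2 higher. The 2 comparisons share the RANKL libraries, so their values are set side by side and not as independent results.

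The genes that fell most were Cars (cysteinyl-tRNA synthetase, chr7:143110967-143153827 in the deposited table), Sars (chr3:108332181-108352525), Nars (chr18:64632718-64649723) and Aars (alanyl-tRNA synthetase, chr8:111759776-111784296). Cars was at 22.6, 24.2 and 23.6 FPKM in RANKL and at 13.9, 14.9 and 14.9 in RANKL + UD, against 21.0, 22.1 and 22.7 in control. The RANKL + UD libraries lay below all 6 others, and Cars fell by 41.4% from RANKL (log2 fold change -0.77 ± 0.05, edgeR adjusted p = 3.7e-10). Sars was at 133, 130.5 and 142 FPKM in RANKL and at 88.3, 88.7 and 90.9 in RANKL + UD, against 109.95, 115 and 99.7 in control. It fell by 37.9% (log2 fold change -0.69 ± 0.05, edgeR adjusted p = 2.4e-09), and its RANKL + UD libraries were again below all others.

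Nars was at 155, 158 and 161 FPKM in RANKL, at 109.7, 109.4 and 112 in RANKL + UD and at 131, 133 and 126 in control. Its 3 groups did not overlap, and it fell by 34.2% from RANKL (log2 fold change -0.60 ± 0.04, edgeR adjusted p = 1.1e-09). Aars was at 31.7, 32.1 and 32.3 FPKM in RANKL, at 22.1, 23.3 and 22.9 in RANKL + UD and at 24.9, 25.4 and 26.3 in control. It fell by 33.1% (log2 fold change -0.58 ± 0.04, edgeR adjusted p = 2.5e-09), also with no overlap among the 3 groups. Iars (isoleucyl), Gars (glycyl), Rars (arginyl), Lars (leucyl), Tars (threonyl), Eprs (glutamyl-prolyl), Yars (tyrosyl), Mars1 (methionyl) and Qars (glutaminyl-tRNA synthetase) fell by 17.0% to 26.4%.

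Hars (histidyl-tRNA synthetase) was the cytosolic gene that rose. It was at 37.7, 35.4 and 39.1 FPKM in RANKL, at 45.2, 45.1 and 46.4 in RANKL + UD and at 35.2, 34.2 and 35.9 in control, with every RANKL + UD library above the 6 others (log2 fold change 0.20 ± 0.05, edgeR adjusted p = 0.0055). Dars was at 50.1, 52.0 and 52.5 FPKM in RANKL + UD, within the range of 50.3 to 55.1 of the RANKL libraries apart from 1 library, and did not pass (log2 fold change -0.13 ± 0.05, edgeR adjusted p = 0.056). It passed with DESeq2 (adjusted p = 0.035), with the 6 libraries of the comparison alone (0.035) and without RANKL library 2 (0.031). Kars, Farsa, Farsb, Wars and Vars did not pass either. Kars was at 40.6 to 42.2 FPKM in RANKL and 39.6 to 44.5 in RANKL + UD, and Farsb, the beta subunit of phenylalanyl-tRNA synthetase, was at 50.6 to 53.4 and 52.5 to 56.3.

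Promoter sequence of the cytosolic genes is shown because 13 of them were lower together. RefSeq windows of GRCm38.p6, from 250 bases before to 50 after each start site, were searched for 12 cytosolic and 15 mitochondrial synthetase genes. Genes with no matched window included Cars, Nars, Lars and Rars, which were lower in RANKL + UD, and Hars, which was higher. The counts below therefore do not cover all the genes that changed. The core of the amino acid response element, searched as TGATGNAA on either strand, was chosen after the values had been seen. It occurred in 4 of the 12 cytosolic genes (Gars, Iars, Tars and Yars), in 0 of the 15 mitochondrial genes and in 4.51% of 27025 mouse genes. All 4 genes were among the 8 searched cytosolic genes that were lower in RANKL + UD, and the motif was absent from the windows of Eprs, Mars1, Qars and Sars, which were lower too. The E-box CACGTG occurred in 3 of the 12 cytosolic genes (Farsb, Iars and Tars), in 1 of the 15 mitochondrial genes (Ears2) and in 8.09% of genes, and no match of one motif shared bases with a match of the other in these windows. A match describes the letters of the window and is no evidence of binding. In the following 30-base stretches, read along the strand of the gene, capitals mark the match, which is TGATGNAA itself in Yars and its reverse complement in the others.
Gars, chr6:55037960-55037989, plus strand: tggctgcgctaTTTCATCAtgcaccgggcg
Iars, chr13:49682126-49682155, plus strand: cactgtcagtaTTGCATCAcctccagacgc
Tars, chr15:11399655-11399684, minus strand: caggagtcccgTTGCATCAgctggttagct
Yars, chr4:129189895-129189924, plus strand: acgagctcagcTGATGCAAcccgacgggac

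The match lay 30 bases before the start site in Gars and 15 before it in Tars, and it began at base 8 of the transcript in Iars and at base 4 in Yars. The 160 bases before the start site are printed for Sars, the gene that fell most among those searched. Neither set of letters is in this stretch.
Sars, chr3:108445260-108445419, minus strand: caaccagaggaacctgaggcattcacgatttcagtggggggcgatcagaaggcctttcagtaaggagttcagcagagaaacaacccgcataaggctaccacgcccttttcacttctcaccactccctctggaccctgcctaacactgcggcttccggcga

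**Figure D3:**
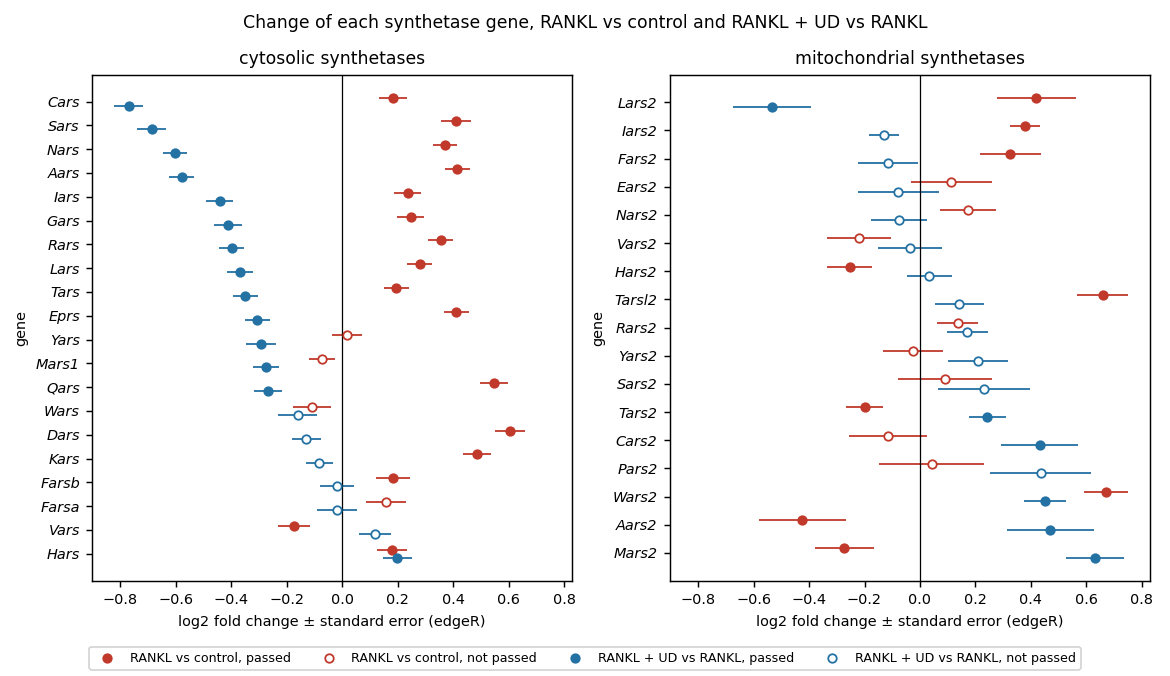
Log2 fold change ± SE of each synthetase gene in RANKL against control (red) and RANKL + UD against RANKL (blue), with filled points for an adjusted p under 0.05 and 17 of the 18 mitochondrial genes drawn. Most cytosolic genes lay to the right in the first comparison (median 0.24) and to the left in the second (median -0.30), and the mitochondrial genes were spread around 0 in the first (median 0.07).

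In the mitochondrial class, UD gave 5 higher genes, 1 lower gene and 12 that did not pass, with a median log2 fold change of 0.16. Without Tarsl2 the counts were 5 and 1 of 17, with a median of 0.17. The share of higher genes, 27.8%, stood beside 18.6% of all genes tested. Every RANKL + UD library was above every RANKL library in 7 of the 18 genes, against 34.1% of all genes tested. With total-count scaling, 9 mitochondrial genes were higher and 1 lower, and the share of higher genes among all called genes was 66.2% in place of 48.0%. DESeq2 called 5 higher and 0 lower, and the number of lower genes was 2 without control library 3.

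Mars2 (mitochondrial methionyl-tRNA synthetase, chr1:55276336-55287629) was at 2.35, 1.79 and 1.87 FPKM in RANKL, at 3.37, 3.07 and 3.43 in RANKL + UD and at 2.55, 2.84 and 2.30 in control. The RANKL + UD libraries were above all others, and Mars2 rose by 54.9% (log2 fold change 0.63 ± 0.10, edgeR adjusted p = 5.6e-05). Wars2 was at 9.56, 9.16 and 9.13 FPKM in RANKL + UD, above every RANKL library, with a log2 fold change of 0.45 ± 0.08 (edgeR adjusted p = 6.7e-05). For Wars2 the order was control, RANKL and RANKL + UD, with no overlap between neighbouring groups, and its log2 fold change against control was 1.12 ± 0.08. Tars2 (mitochondrial threonyl-tRNA synthetase) was at 6.77, 7.42 and 7.02 FPKM in RANKL and at 8.93, 8.26 and 9.43 in RANKL + UD (log2 fold change 0.24 ± 0.07, edgeR adjusted p = 0.0067). The RANKL libraries of Tars2 were below all 6 others, and the control libraries, at 8.92, 8.57 and 8.38 FPKM, overlapped those of RANKL + UD.

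Aars2 was at 1.38, 1.35 and 1.20 FPKM in RANKL and at 1.60, 1.98 and 2.22 in RANKL + UD, with no overlap (log2 fold change 0.47 ± 0.16, edgeR adjusted p = 0.021). Its adjusted p was 0.078 without RANKL library 3, 0.058 without RANKL + UD library 2 and 0.12 without RANKL + UD library 3. Cars2 was at 1.94, 1.58 and 2.33 FPKM in RANKL and at 3.23, 2.67 and 2.44 in RANKL + UD, also without overlap (log2 fold change 0.43 ± 0.14, edgeR adjusted p = 0.018), and its control libraries, at 2.07, 2.07 and 2.6, overlapped both groups. Without RANKL library 2 its adjusted p was 0.11, and without RANKL + UD library 1 it was 0.13. These are genes of low level, and each call was lost without 1 of the libraries named.

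Lars2 was the mitochondrial gene that fell, with a log2 fold change of -0.53 ± 0.14 (edgeR adjusted p = 0.005). It was at 43.6, 49.0 and 55.0 FPKM in RANKL and at 41.3, 25.0 and 41.8 in RANKL + UD, and the control libraries, at 44.2, 42.2 and 30.7, overlapped both. The highest RANKL + UD value was below the lowest RANKL value, but the call was lost with DESeq2 (adjusted p = 0.0505) and with limma (0.12 and 0.14). The other 12 mitochondrial genes did not pass. Of these, Rars2 was at 13.1 to 14.2 FPKM in RANKL and 15.7 to 16.7 in RANKL + UD, and Iars2 at 13.0 to 13.4 and 12.3 to 13.1.

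Partner genes of 1 amino acid were called in opposite directions in 4 cases in RANKL + UD against RANKL. Aars, Cars, Mars1 and Tars were lower, whereas Aars2, Cars2, Mars2 and Tars2 were higher. Mars1 was at 41.9, 43.3 and 44.0 FPKM in RANKL and at 37.5, 38.6 and 37.3 in RANKL + UD, below its control libraries at 47.6, 47.5 and 49.3 as well (log2 fold change -0.27 ± 0.05). Tars was at 44.0, 42.9 and 42.6 FPKM in RANKL and at 35.2, 36.2 and 36.5 in RANKL + UD, with the control libraries between them at 38.5, 40.8 and 40.9 (log2 fold change -0.35 ± 0.05). In RANKL against control, Aars, Hars and Tars were higher and Aars2, Hars2 and Tars2 lower. For Aars2, control was at 1.61, 2.06 and 1.93 FPKM, above every RANKL library, and its fall (edgeR adjusted p = 0.026) was lost without control library 2 (0.11), control library 3 (0.055) or RANKL library 3 (0.090). Hars2 was at 11.6, 10.8 and 9.85 FPKM in control, at 7.73, 8.97 and 8.72 in RANKL and at 8.65, 9.53 and 9.46 in RANKL + UD. Its fall with RANKL was lost without control library 1 (0.069) or RANKL library 1 (0.067), as was that of Tars2 (0.063 in each case).

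**Figure D4:**
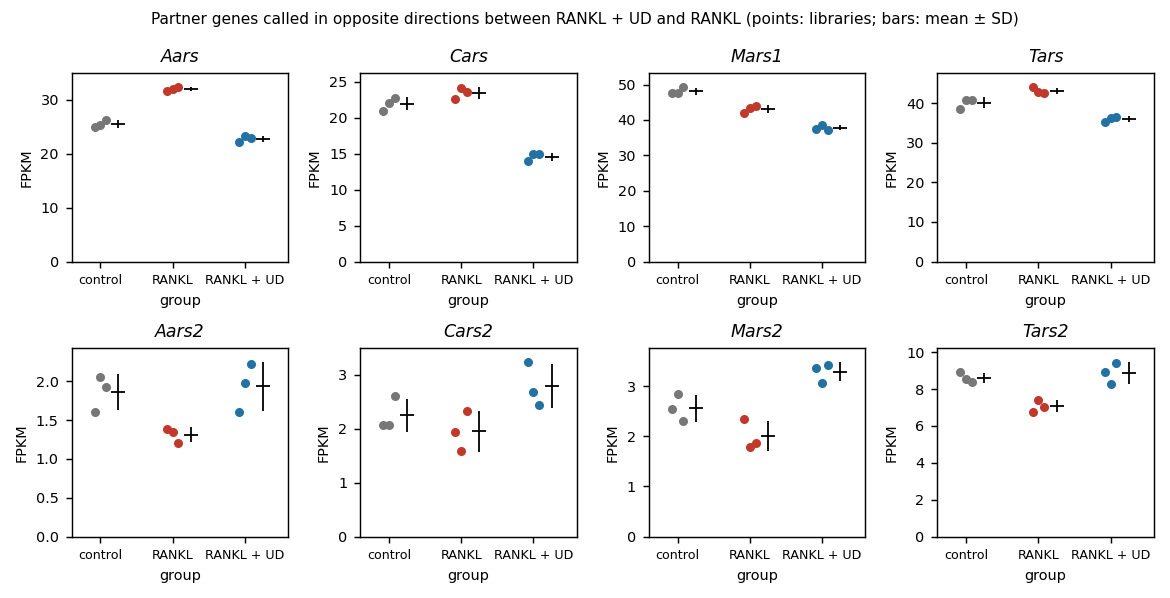
FPKM of the 4 synthetase pairs called in opposite directions in RANKL + UD against RANKL, with a point for each library and mean ± SD (n = 3) per group. In the cytosolic genes (top) the RANKL + UD libraries were below the RANKL libraries, and in the mitochondrial genes (bottom) they were above them.

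The ratio of the cytosolic to the mitochondrial partner within a library does not depend on library scaling. It was formed for the 13 amino acids whose enzyme is encoded in each class by 1 gene that serves that amino acid alone. Threonine and phenylalanine, with more than 1 gene in a class, and glutamate and proline, which share Eprs, were left out. In RANKL + UD against RANKL the mean log2 ratio was lower for 10 amino acids and higher for 3, with a median difference of -0.53 and a range of -1.20 for Cars to 0.20 for Lars. For RANKL against control, 10 ratios were higher and 3 lower, with a median difference of 0.20. An exact two-sided permutation test of 3 against 3 libraries cannot give a p under 0.1, so the ratios are given as a description.

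Aars exceeded Aars2 by 13.7 times in control, 24.5 times in RANKL and 11.9 times in RANKL + UD. The log2 ratio was 4.61 ± 0.12 in RANKL and 3.57 ± 0.21 in RANKL + UD (SD, n = 3), and these groups did not overlap. The ratio of Cars to Cars2 was 9.82, 12.2 and 5.28, that of Mars1 to Mars2 18.8, 21.6 and 11.5, and that of Sars to Sars2 55.5, 70.0 and 36.7 in the same order of groups. In each of these 3 pairs the RANKL + UD libraries were below all others. The ratio of Wars to Wars2 was 6.33 in control, 3.69 in RANKL and 2.42 in RANKL + UD, lower at each step with no overlap between the groups. Lars to Lars2, at 1.48, 1.33 and 1.52, was the lowest ratio in every group and its groups overlapped.

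**Figure D5:**
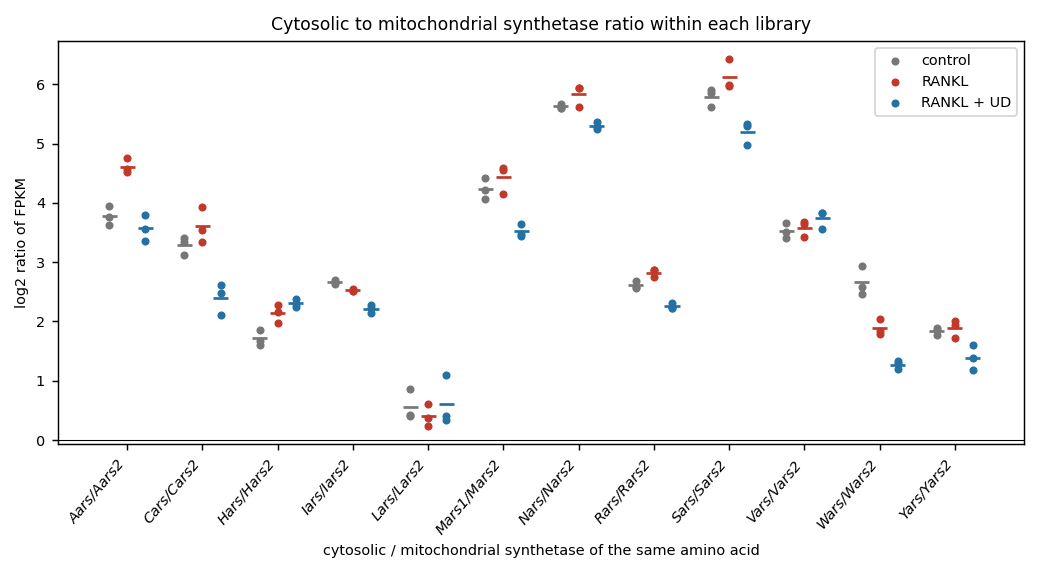
Log2 ratio of the FPKM of the cytosolic over the mitochondrial synthetase of the same amino acid in each library (points) with the group mean (bars), for 12 of the 13 amino acids. Blue points (RANKL + UD) lay below red points (RANKL) on average in 9 of the 12 pairs drawn, by 1.04 for Aars and by 1.20 for Cars.

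Against control, the cytosolic genes of RANKL + UD were called in both directions. Of 20 genes, 10 were lower, 5 higher and 5 did not pass, with a median log2 fold change of -0.12, where 27.3% of all genes tested were lower and 26.7% higher. The RANKL + UD libraries were all below control in 12 genes and all above in 5, against 30.4% and 29.5% of all genes. Of all 44 tested members, Cars, Wars2 and Tarsl2 passed with a fold change of at least 1.5, against 22.1% of genes. Cars (-0.59 ± 0.05) and Mars1 (-0.35 ± 0.05) were lowest, followed by Sars (-0.28), Yars (-0.28), Wars (-0.27), Nars (-0.23), Iars (-0.21), Gars (-0.16), Aars (-0.16) and Tars (-0.16). The fall of Gars was lost without RANKL + UD library 1 (edgeR adjusted p = 0.053). Dars (0.47 ± 0.05), Kars (0.40 ± 0.05), Hars (0.38 ± 0.05), Qars (0.28) and Farsb (0.16) were higher. The call of Farsb was lost with limma (adjusted p = 0.096 and 0.11) and without control library 1 (0.11), control library 2 (0.19), RANKL + UD library 1 (0.056) or RANKL + UD library 3 (0.13). Of the mitochondrial class, 6 genes were higher, 1 was lower and 11 did not pass, with a median of 0.20. Without Tarsl2, 5 of 17 were higher and 1 lower, with a median of 0.19. Wars2 (1.12), Tarsl2 (0.80 ± 0.09), Pars2 (0.48), Mars2 (0.36), Rars2 (0.31) and Iars2 (0.25) were higher, and Hars2 was lower (-0.22). Tarsl2 was at 4.51, 4.52 and 4.99 FPKM in RANKL + UD. The call of Hars2 was lost without control library 1, control library 2 or RANKL + UD library 1, and 2 genes were lower without RANKL + UD library 3. It was also lost for Hars2 with limma (adjusted p = 0.055 and 0.062) and with no filter (edgeR adjusted p = 0.059). The call of Pars2 was lost without control library 3, without RANKL + UD library 1 or 3 and with limma (adjusted p = 0.058 and 0.071). Of the 5 other enzymes, Gatc was lower (-0.22 ± 0.08, edgeR adjusted p = 0.024), a call lost without control library 1 (0.059), control library 2 (0.060) or RANKL + UD library 2 (0.082). The Gatc call was also lost with no filter (edgeR adjusted p = 0.12).

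Of the cytosolic enzymes, 8 belong to the multisynthetase complex, an assembly of synthetases held together by scaffold proteins (Eprs, Iars, Lars, Mars1, Qars, Rars, Kars and Dars), a split made after the values had been seen. With RANKL, 7 of these 8 genes were higher than in control and 0 lower (median log2 fold change 0.38), and of the other 12, 8 were higher and 1 lower (median 0.18), where 27.3% of all genes tested were higher and 30.2% lower. With UD, 6 of the 8 were lower than in RANKL and 0 higher (median -0.29), and of the other 12, 7 were lower and 1 higher (median -0.32), beside 20.2% lower and 18.6% higher among all genes. The scaffold genes Aimp1, Aimp2 and Eef1e1 all rose with RANKL, with log2 fold changes of 0.48, 0.24 and 0.66, and of these Aimp1 was lower in RANKL + UD than in RANKL (-0.22 ± 0.05). The rise of Aimp2 was near the threshold (edgeR adjusted p = 0.048), and its control and RANKL libraries overlapped.

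The 5 other enzymes were led by the mitochondrial amidotransferase, which converts glutamyl-tRNA to glutaminyl-tRNA and consists of Qrsl1, Gatb and Gatc. Gatc was at 17.7, 17.8 and 17.2 FPKM in control, at 11.8, 11.4 and 11.1 in RANKL and at 15.1, 14.6 and 15.3 in RANKL + UD. Its 3 groups did not overlap, and it fell by 0.54 with RANKL (SE 0.08, edgeR adjusted p = 8.5e-06) and was higher by 0.31 ± 0.08 in RANKL + UD than in RANKL (edgeR adjusted p = 0.0044). Qrsl1 was at 7.43, 6.62 and 6.68 FPKM in control, at 5.12, 5.29 and 5.22 in RANKL and at 7.34, 7.86 and 7.12 in RANKL + UD. It fell by 0.32 on the log2 scale with RANKL and was higher by 0.43 ± 0.09 with UD (edgeR adjusted p = 0.00051), and its RANKL libraries were below the 6 others. Gatb rose with RANKL (log2 fold change 0.24 ± 0.07, 9.54 to 10.3 against 10.4 to 11.7 FPKM) and did not pass with UD. Its call with RANKL was lost without RANKL library 2 (edgeR adjusted p = 0.060), with total-count scaling (0.084) and with limma (0.080 in both settings). Mtfmt, which formylates the mitochondrial initiator methionyl-tRNA, was at 7.55 to 7.95, 6.36 to 7.07 and 7.50 to 8.71 FPKM and passed in no comparison. Sepsecs, the last enzyme of selenocysteinyl-tRNA synthesis, passed in none either and ranged from 3.54 to 4.89 FPKM over all libraries.

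Genes that act on or with aminoacyl-tRNAs outside the pathway were counted from lists, and Eef1e1 is counted both as a scaffold gene and as an elongation factor. Of 7 cytosolic elongation factors, 6 were higher in RANKL than in control and 4 were lower in RANKL + UD than in RANKL (Eef1a1, Eef2, Eef1g and Eef1b2, by 0.19 to 0.33 on the log2 scale). Eef1a1, which carries aminoacyl-tRNA to the ribosome, had a log2 fold change of -0.33 ± 0.04 with UD. Of 9 mitochondrial translation factors, 4 were higher and 1 lower with RANKL, and with UD 2 were higher (Gfm1 by 0.28 and Tufm by 0.19) and 1 lower (Gfm2). Of all genes tested, 27.3% were higher and 30.2% lower with RANKL, and 18.6% were higher and 20.2% lower with UD. Tufm is the mitochondrial counterpart of Eef1a1.

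The amino acid response genes were lower with UD. Of 13 tested, 12 were lower in RANKL + UD than in RANKL and 1 did not pass, with a median log2 fold change of -1.08, against -0.30 for the cytosolic synthetases, and 20.2% of all genes tested were lower. Atf4 was at 142 to 150.5 FPKM in RANKL and 102 to 108 in RANKL + UD (log2 fold change -0.57 ± 0.05), against 110.5 to 118 in control. Trib3, a pseudokinase induced by ATF4, changed by -2.81 ± 0.11 and Asns (asparagine synthetase) by -0.73 ± 0.05. In RANKL against control, 9 of the 13 were higher and 4 lower, with a median of 0.91, where 27.3% of all genes were higher and 30.2% lower. The part of this response in the synthetase levels was not tested.

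Some of these genes overlap others in the deposited coordinates, and whether counting used strand was not given in the sources used here. Mars1 overlaps Ddit3 on the opposite strand, and Ddit3 (a transcription factor of the amino acid response) was at 15.2 to 17.3 FPKM in control, 27.0 to 30.4 in RANKL and 6.19 to 7.66 in RANKL + UD. Hars and Hars2 overlap each other on opposite strands, Cars2 overlaps Naxd and Iars2 overlaps Rab3gap2 on the opposite strand, and Tarsl2 overlaps Tm2d3 on the same strand. Tm2d3 was at 6.63 to 7.92, 5.93 to 6.76 and 7.08 to 8.55 FPKM and passed in no comparison. On the opposite strand, Yars overlaps C77080, Wars2 overlaps Mir6481, Fars2 overlaps Lyrm4 and Ears2 overlaps Ubfd1. In the same order of groups, C77080 was at 3.00 to 4.56, 12.45 to 13.5 and 7.85 to 8.64 FPKM. Mir6481 was at 0.57 to 1.84, 1.42 to 4.23 and 2.63 to 6.69. Lyrm4 was at 5.49 to 6.13, 4.04 to 4.81 and 3.86 to 5.17, and Ubfd1 at 6.73 to 7.73, 6.64 to 7.11 and 6.71 to 7.45. How much of any value came from an overlapping gene was not tested.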

How the data were processed

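RNA-seq libraries of RAW264.7 cells were grouped by their GEO titles, 3 per group. The deposited table holds whole-number read counts per gene, which the authors left unnormalized, and FPKM, which the authors made from these counts, exonic length and library total. FPKM recomputed from the counts matched in 100.0% of values within 0.0051. The aligner and counting tool were not given in the sources used here. The submitters' notes name mm10, but only 1435 of 52073 shared genes had the coordinates of GRCm38, so gene positions are those of the table and promoter positions those of RefSeq GRCm38.p6. The RANKL columns are named as the model group, a name the study uses for RANKL.

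Counts were tested with edgeR 4.0.16 (R 4.3.3) by the quasi-likelihood test. That test gives no standard error. The SE printed was derived as the absolute log2 fold change divided by the square root of the F statistic. A single fit held all 9 libraries, scaled by TMM, and p-values were adjusted (Benjamini-Hochberg) over the 11995 genes that reached 1 FPKM in 3 or more libraries. TMM factors were 0.959 to 0.962 for RANKL and 1.01 to 1.03 for the others. Alternatives were DESeq2 1.42.0, limma 3.58.1 on log2(FPKM + 1) and log2(FPKM + 0.1), other scalings, no filter, 6 libraries, a replicate block and leaving out each library. Tested on simulated data for RANKL + UD against RANKL over 11995 genes, edgeR recovered 48%, 78%, 84% and 94% of genes changed 1.25, 1.5, 2 and 4-fold, with 11 false calls. The simulation changed 50 genes at each fold, far fewer than the 2233 higher and 2418 lower genes called in the data. These figures therefore hold for that setting only. Totals of 15951800 to 19746862 counts set the precision, and SDs cover 3 libraries. Replicates differed by more than sampling noise (chi-square per degree of freedom of 2.98 to 9.54). No sequencing batch was given.

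Members and lists were chosen with earlier results of these data known. Values in every library were given for members called with a fold change of at least 1.5 in RANKL against control or RANKL + UD against RANKL, for pairs called in opposite directions, and for Lars2 and the amidotransferase genes, which were added after their values were seen. Marker lists covered osteoclasts, macrophages, stromal, T, B and neutrophil cells. Python 3.11.15 was used for the tables (scipy 1.17.1, numpy 2.4.6, pandas 2.3.3). Single results for some genes and windows are not reported here.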

Additional observations from a re-analysis of the deposited data

How the results depend on the processing

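Of 73 called member results, 1171 of 1241 alternative values kept their direction and call, 70 kept the direction without passing and 0 reversed. Correlations of deviations between libraries of different groups were small, at -0.03 to 0.097 for the same replicate number and -0.102 to 0.064 for different numbers. The highest were those among the libraries numbered 1 (0.097, 0.089 and 0.075). With the replicate block, 4 member genes gained a call and none lost one. Farsa was called higher in RANKL than in control (16 cytosolic genes in place of 15), Vars was called higher with UD than with RANKL alone (2 in place of 1), Dars (adjusted p = 0.036) was called lower there, and Cars2 (0.041) was called higher in RANKL + UD than in control.

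For RANKL against control, cytosolic genes called lower numbered 3 with total counts and 2 with limma at either pseudocount, in place of 1, and 0 to 2 when a library was left out (2 without control library 1, 0 without control library 3 or RANKL library 1). Leaving out a library gave 3 to 5 higher and 1 to 4 lower mitochondrial genes. For RANKL + UD against RANKL, cytosolic genes called higher numbered 2 with total counts and with limma at a pseudocount of 1, and 1 to 2 when a library was left out (2 without RANKL + UD library 1). Mitochondrial genes called higher numbered 9 with total counts, and those called lower 2 with RLE size factors or the 6 libraries alone, 0 with DESeq2 or limma at either pseudocount, and 1 to 2 when a library was left out. For RANKL + UD against control, mitochondrial genes called lower numbered 0 without the filter and with limma at either pseudocount, and 0 to 2 when a library was left out. The cause was not tested.

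The log2 ratio of the summed cytosolic level in RANKL over control was 0.20, and 0.16 with values rescaled to TPM. Without Lars2, an alternative chosen after seeing the data, that of the mitochondrial sum was -0.0075 in place of 0.10 for RANKL over control and 0.22 in place of 0.02 for RANKL + UD over RANKL. With Lars2 kept in the sum, leaving out a library gave -0.02 to 0.09 for RANKL + UD over RANKL. Among uncalled log2 fold changes, leaving out a library turned the sign of 4. Cars2 in RANKL against control was -0.262 to 0.0161 (above 0 without RANKL library 2), and Hars2 in RANKL + UD against RANKL was -0.0277 to 0.0746 (below 0 without RANKL library 1). In RANKL + UD against control, Aars2 was -0.0656 to 0.1685 (below 0 without control library 1, at -0.0468, or RANKL + UD library 3) and Tars2 -0.0018 to 0.0941 (below 0 without RANKL + UD library 3). The mitochondrial genes Aars2 and Cars2 had standard errors of 0.14 to 0.16 on the log2 scale, so changes of that size were not detectable in them. Lars2, with counts of up to 11692 in a RANKL library, also had a standard error of 0.14.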
